A study of Rattus norvegicus with 18 samples.

Results

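The comparison described here is that of total brain from rat pups whose dams received the lower dose of BDE-47, 0.002 mg/kg, with total brain from pups whose dams received the vehicle. It was chosen by sample title and takes 6 of the 18 arrays of the study, 3 exposed and 3 vehicle, across all 22523 probes. BDE-47 (2,2',4,4'-tetrabromodiphenyl ether) is a brominated diphenyl ether of flame retardant mixtures that persists in fat and passes to offspring through placenta and milk. The exposed pups came from Wistar dams injected in the tail with 0.002 mg/kg body weight of BDE-47 on gestational day 15 and postnatal days 1 and 5. The vehicle pups came from Wistar dams given the same 3 injections (0.3 ml/kg) of ethanol, Cremophor EL and sterile water, which the exposed dams received too. Each group holds 1 female pup from each of 3 litters, killed on postnatal day 10, so that the pups of a group are separate litters. The pups themselves were not injected, and the dose that reached their brains is not given in the sources used here. A further 3 total brain arrays from pups of dams given 0.2 mg/kg entered the fit, and 9 frontal lobe arrays came from other pups, sampled on postnatal day 41 after 6 injections per dam by their own protocol, while the text for the whole series names only postnatal day 10.

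In the second postnatal week the rat brain is forming synapses and beginning to myelinate. Thyroid hormone drives part of this: it is carried by transthyretin, activated by the deiodinase Dio2, and acts through the nuclear receptors Thra and Thrb on target genes such as Klf9, Hr and Mbp. Brominated diphenyl ethers are known for lowering circulating thyroid hormone in rodents, and for inducing hepatic enzymes of foreign compound metabolism such as Cyp2b1. The comparison asks which transcripts differ in the whole brain at the lower of the study's doses.

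No probe was called between 0.002 mg/kg and vehicle. At a Benjamini-Hochberg adjusted p under 0.05 in limma, 0 of 22523 probes passed (0%), and 2 probes came close, each with an adjusted p of 0.0534. At an unadjusted p under 0.05 in limma there were 1468 probes (6.52%), 752 of them higher and 716 lower in the exposed pups. The 3 exposed values all lay beyond the 3 vehicle values in 2921 probes (13.0%). Differences were small: their median size was 0.0287 on the deposited log2-like scale, 78 probes reached 0.5 and 7 reached 1. The median size was 0.0743 in the brighter 50% of probes and 0.0155 in the dimmer 50%. Among the brighter 50% of probes 11.1% had an unadjusted limma p under 0.05, against 1.97% of the dimmer 50%. Because nothing passed, each gene below is given by its values, and no difference below is a call.

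The arrays of the 6 pups resembled one another, with r between 0.984 and 0.998 across probes, and 56.6% of probes averaged under 8, near the floor of the scale. Several defining genes of brain cells were well above it in the 6 compared arrays: the neuronal Snap25 had a median of 12.76, the astrocytic Gfap 12.43, the microglial Aif1 11.88, the Purkinje cell gene Pcp2 9.95 and the choroid plexus gene Ttr 13.09. The astrocytic Slc1a2, at 8.85, and Slc17a7 of cortical projection neurons, at 9.22, lay nearer to the floor, and pituitary Prl lay at 7.87. On the first principal component, of the 9 total brain arrays, which held 45.7% of their variance, 2 of the 6 pups stood apart. They were exposed replicate 2, with a score of -23.84, and vehicle replicate 3, with a score of 12.84, whereas the other 4 lay between -2.32 and 2.48 and the 3 pups at 0.2 mg/kg between -5.19 and 8.32. Their scores lie at opposite ends, and the medians of all lists without them are shown in the plot of list medians. Because 1 is exposed and 1 is vehicle, leaving out both moves any list that follows this component toward 0. Such a shift is fixed by the choice of the pups and is no independent check of a list.

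The gene nearest to a call was Arpin, which encodes an inhibitor of the Arp2/3 complex that branches actin filaments. Its values were 9.68, 9.70 and 9.66 in the 0.002 mg/kg pups, against 9.97, 10.05 and 10.09 in the vehicle pups, a difference of -0.36 ± 0.03 (limma SE) with an adjusted p of 0.0534. The exposed pups lay close together and all below the vehicle pups. A probe without a gene symbol in the annotation, ILMN_1363254, had the same adjusted limma p of 0.0534, with 10.79, 10.995 and 10.92 in the exposed pups against 10.08, 10.14 and 9.92 in the vehicle pups, a difference of 0.85 ± 0.07.

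Of the 12 named genes on the higher side, Adgrb1, Myl12b and Mras are described first. Adgrb1, an adhesion receptor of synapses and astrocytes that recognises phosphatidylserine, had 8.65, 8.81 and 8.59 in the exposed pups, against 8.18, 8.20 and 8.22 in the vehicle pups, a difference of 0.48 ± 0.05 with an adjusted limma p of 0.179. Myl12b, a regulatory light chain of nonmuscle myosin, had 8.30, 8.69 and 8.46 in the exposed pups, against 7.89, 7.92 and 7.90 in the vehicle pups, a difference of 0.58 ± 0.08 with an adjusted limma p of 0.364. Mras, a small GTPase of the Ras family, had 9.20, 9.22 and 9.14 in the exposed pups, against 8.99, 8.98 and 9.005 in the vehicle pups, a difference of 0.19. The vehicle pups lay close together for each of these genes, and the exposed pups were more scattered for Adgrb1 and Myl12b. Both Adgrb1 and Myl12b were called, with adjusted p of 0.0106 and 0.00665, when limma's prior followed the mean level with robust options.

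**Figure D1:**
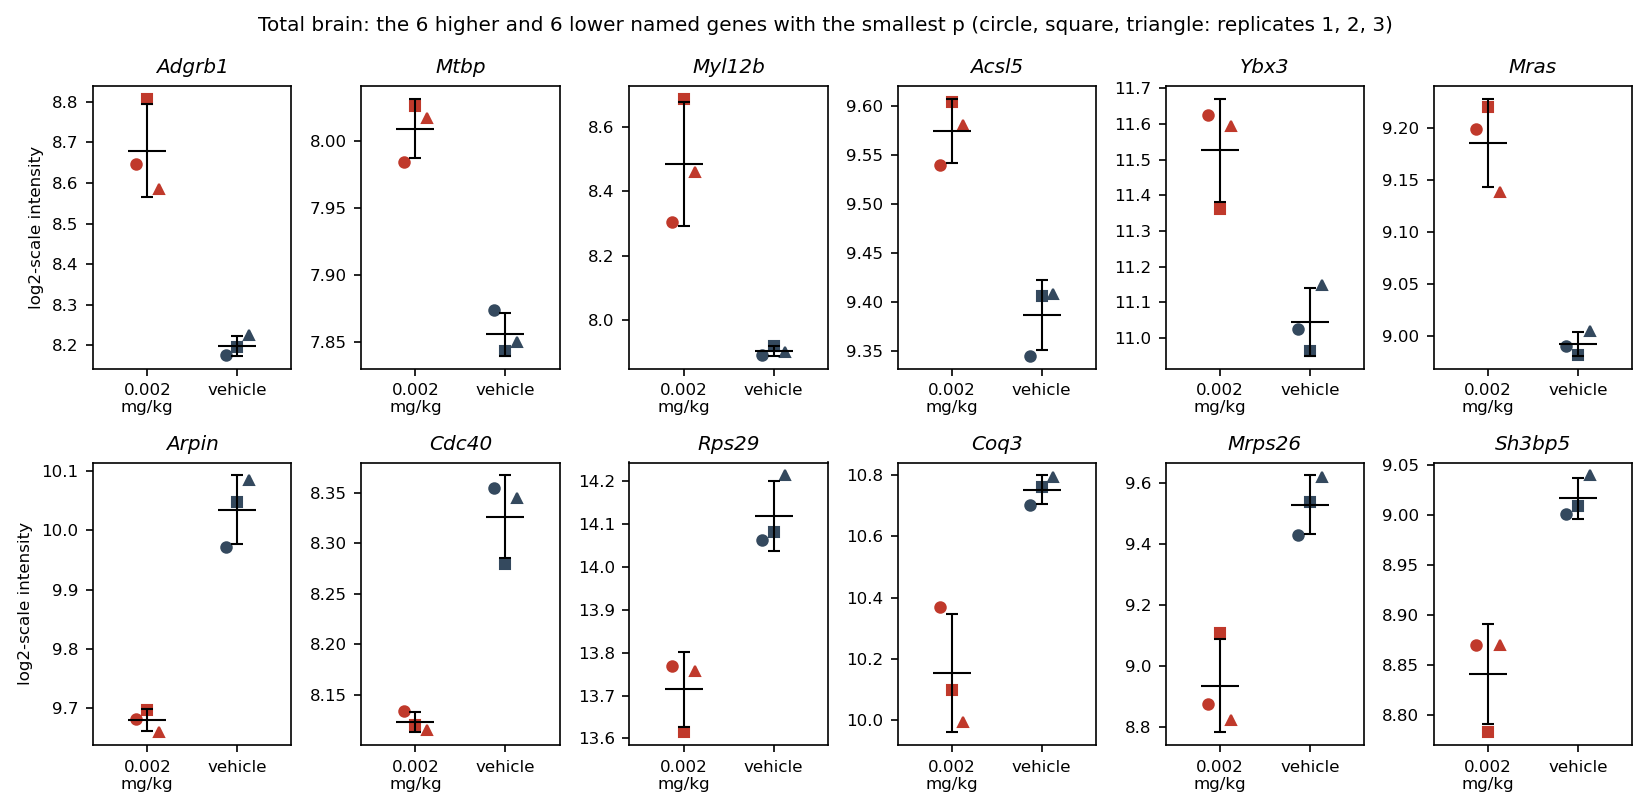
Values of the 12 named genes with the smallest p, 6 higher and 6 lower, on the deposited log2-like scale (y axis) in the 0.002 mg/kg pups (red, left) and the vehicle pups (dark, right). Each symbol is 1 pup, and bars are the mean and SD of 3. Groups do not overlap in any panel, as the rule for these genes required, and the exposed values of Myl12b, 8.30 to 8.69, are among the more scattered.

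Named genes of lipid handling lay on both sides. Acsl5, which couples long fatty acids to coenzyme A, had 9.54, 9.60 and 9.58 in the exposed pups, against 9.35, 9.41 and 9.41 in the vehicle pups, a difference of 0.19. Cd36, a fatty acid and lipoprotein receptor, had 8.41, 8.44 and 8.39 in the exposed pups, against 8.30, 8.17 and 8.19 in the vehicle pups, a difference of 0.19. In both genes the groups were close but did not overlap. Lsr, the lipolysis-stimulated lipoprotein receptor, differed by -0.11, on the lower side.

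Genes of nucleic acid handling and translation stood on both sides. Ybx3, a cold shock protein that binds DNA and RNA, had 11.62, 11.36 and 11.59 in the exposed pups, against 11.02, 10.96 and 11.15 in the vehicle pups, a difference of 0.48. Eif2ak1, the heme-regulated kinase of the initiation factor eIF2, had 9.81, 9.87 and 9.66 in the exposed pups, against 9.48, 9.48 and 9.40 in the vehicle pups. On the lower side were Exosc2, an RNA exosome subunit, with 9.01, 8.94 and 9.01 in the exposed pups against 9.24, 9.12 and 9.20 in the vehicle pups, and Rps29, a protein of the small ribosomal subunit, with 13.77, 13.61 and 13.76 in the exposed pups against 14.06, 14.08 and 14.21 in the vehicle pups. Probes of a gene did not always go the same way: for the splicing factor Cdc40 the selected probe differed by -0.20 and a brighter probe of the gene by 0.31. A second probe of Dok4 differed by -0.16 and one of Grik5 by -0.01, smaller than the probes reported for these genes. Likewise 1 of the 3 probes of the endocytic adaptor Hip1 differed by 0.22 and the other two by 0.06 and 0.02.

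Mitochondrial genes made up 3 of the 12 named genes on the lower side, and their share over all genes was not counted. Coq3, a methyltransferase of ubiquinone synthesis, had 10.37, 10.10 and 10.00 in the exposed pups, against 10.70, 10.76 and 10.79 in the vehicle pups, a difference of -0.60 ± 0.09. Mrps26, a protein of the mitochondrial ribosome, had 8.88, 9.11 and 8.82 in the exposed pups, against 9.43, 9.54 and 9.62 in the vehicle pups, a difference of -0.60 ± 0.09. Mpv17, an inner membrane protein needed to maintain mitochondrial DNA, had 10.08, 9.99 and 10.05 in the exposed pups, against 10.59, 10.38 and 10.57 in the vehicle pups, a difference of -0.48. The adjusted limma p of the 3 genes lay between 0.364 and 0.576. Fastkd2, which is needed for mitochondrial ribosome assembly, went the other way, with 9.30, 9.35 and 9.23 in the exposed pups against 9.12, 9.13 and 9.09 in the vehicle pups. The rest of the 12 named genes on each side are not grouped by function here. They differed by 0.15 (Mtbp), 0.20 (Zfp800) and 0.27 (Klhl4) on the higher side. On the lower side they differed by -0.18 (Sh3bp5), -0.33 (Rwdd1), -0.19 (Gpn2) and -0.39 (Dok4).

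The largest differences were mostly in other genes. Among the 6 largest differences in each direction, only Coq3 also belonged to the 12 genes with the smallest p on its side. Hoxb5, a homeobox gene of the hindbrain and spinal cord, had 9.17, 9.75 and 9.22 in the exposed pups, against 7.82, 8.998 and 8.02 in the vehicle pups, a difference of 1.10 ± 0.33. Alox15, a lipoxygenase that oxidises arachidonic and linoleic acid, had 12.23, 10.96 and 11.92 in the exposed pups, against 10.91, 10.86 and 10.46 in the vehicle pups, a difference of 0.96 ± 0.34. Pafah1b1, the lissencephaly gene that regulates dynein, had 10.07, 10.12 and 10.01 in the exposed pups, against 9.48, 9.43 and 8.30 in the vehicle pups, where vehicle replicate 3 alone lay well under the others. Hmgn1, a nucleosome-binding protein, had 10.56, 12.65 and 12.36 in the exposed pups, against 10.61, 10.46 and 10.95 in the vehicle pups, so that 1 exposed pup lay among the vehicle pups. On the lower side, the dynactin subunit Dctn3 had 11.21, 10.53 and 11.15 in the exposed pups against 11.47, 11.63 and 11.63 in the vehicle pups, and the nuclear export factor Rae1 had 10.20, 9.70 and 10.02 in the exposed pups against 10.16, 10.68 and 10.96 in the vehicle pups. The adjusted limma p of these 6 genes was 0.733 each.

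Several of the largest differences came from probes whose values fall at separate levels from pup to pup. In all, 11 probes had a gap of at least 1.5 between neighbouring values among the 9 total brain arrays, a threshold chosen after the values were seen, and 8 of the 11 also had such a gap in the frontal lobe pups. The Rps9 probe ILMN_2038795 had 11.81 in exposed replicate 1 and 8.13 and 8.01 in the other exposed pups, against 7.98, 8.00 and 8.12 in the vehicle pups, and at 0.2 mg/kg a single pup was high again, at 12.16. Mrpl18 had 8.502, 11.08 and 8.39 in the exposed pups, against 10.99, 10.98 and 11.20 in the vehicle pups, and 8.504, 10.89 and 8.38 at 0.2 mg/kg. Washc3, a subunit of the endosomal WASH complex, had 9.83, 9.56 and 9.85 in the exposed pups, against 7.84, 9.96 and 7.88 in the vehicle pups. For these probes a group mean follows how many of its pups lie at the upper level, and none of the 11 had an unadjusted limma p under 0.05.

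**Figure D2:**
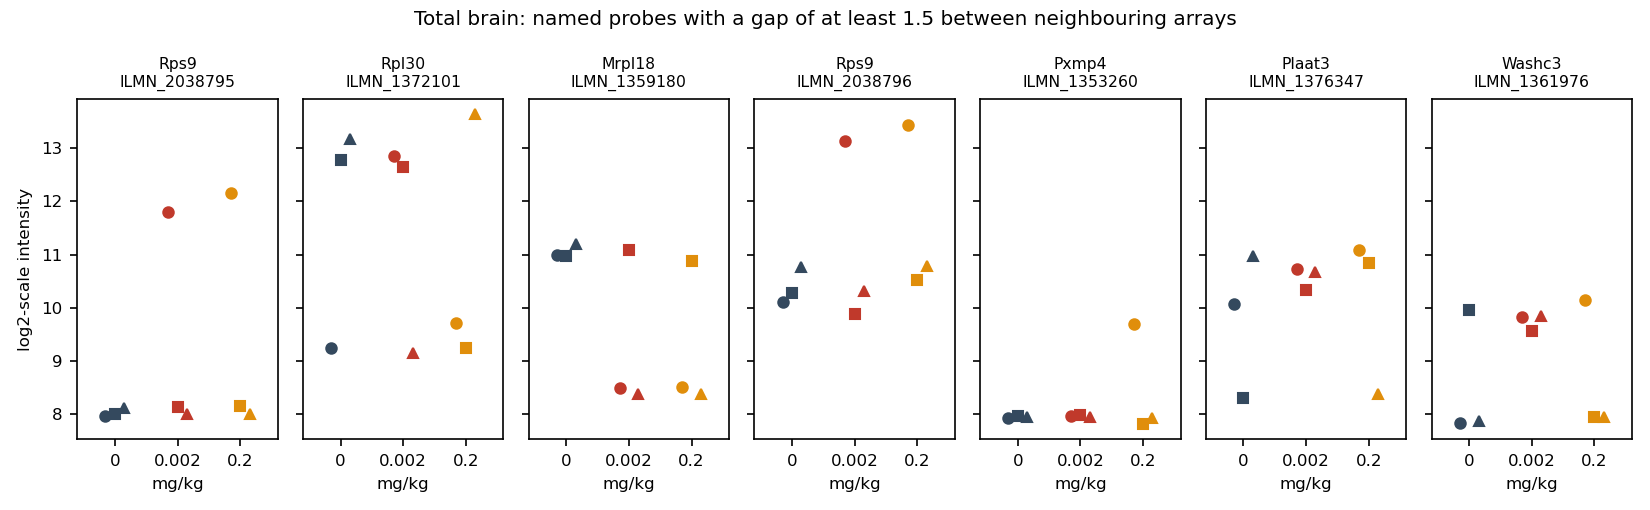
Values on the log2-like scale (y axis) of the 7 probes with a gene symbol and a gap of at least 1.5, at 0 (vehicle), 0.002 and 0.2 mg/kg (x axis). Each symbol is 1 pup (circle, square and triangle for replicates 1, 2 and 3). Pups sit at an upper or a lower level within a dose group, as in the Mrpl18 panel, where 3 vehicle pups, 1 pup at 0.002 mg/kg and 1 pup at 0.2 mg/kg were high.

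Gene lists were read by the number of members on each side, with 1 probe per gene. Over all 13337 genes with a symbol, 50.9% had a difference below 0 and the median was -0.001; 520 were higher (3.90%) and 509 lower (3.82%) at an unadjusted limma p under 0.05. Of the 11262 brighter probes 634 were higher and 612 lower at that p, against 118 and 104 of the 11261 dimmer probes. Over all genes with a symbol, the groups did not overlap in 888 that were higher (6.66%) and in 934 that were lower (7.00%). The lists that lay farthest from 0 were cytosolic and mitochondrial ribosomal proteins and oxidative phosphorylation below it, and myelin, astrocyte and ionotropic glutamate receptor genes above it. No list held a called gene.

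**Figure D3:**
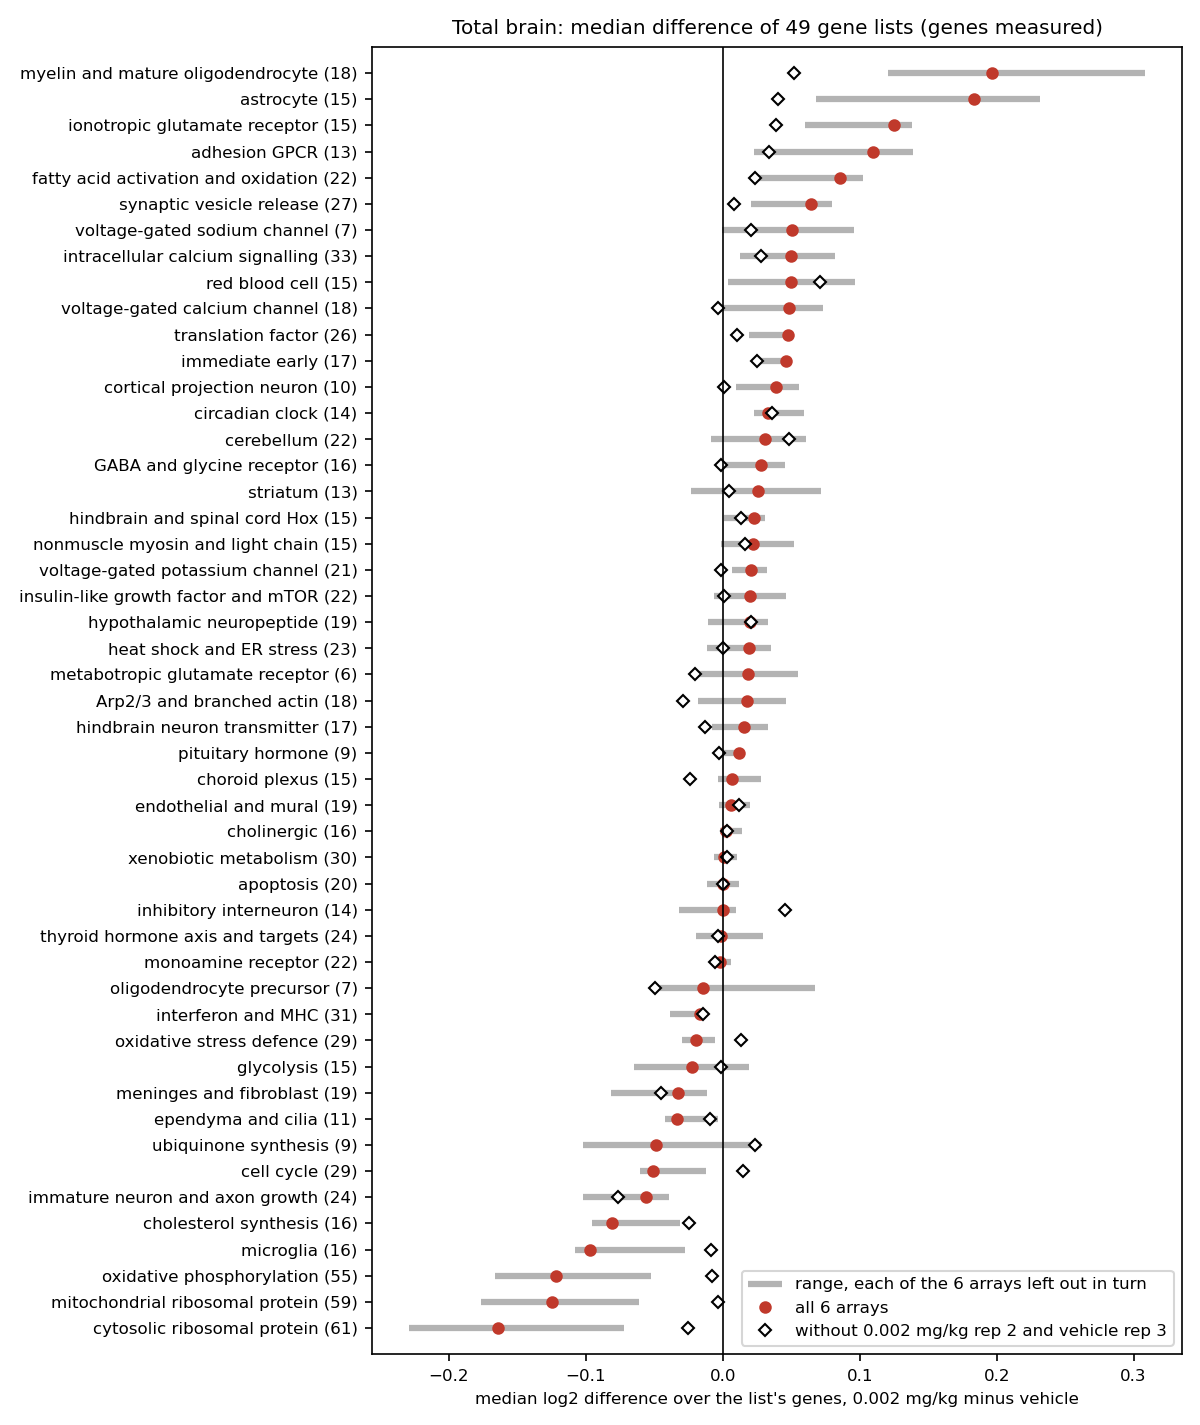
Median difference over the measured genes of each of 49 lists (x axis, log2-like units, 0.002 mg/kg minus vehicle). Red points use all 6 pups, grey bars run over the values with each pup left out in turn, and open diamonds leave out exposed replicate 2 and vehicle replicate 3 together. The diamonds of the lists at both ends lie much nearer to 0 than the red points. The choice of these 2 pups moves lists that follow the first principal component that way.

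Cytosolic ribosomal protein genes lay below vehicle in 58 of 61 measured members, with a median of -0.16. Of these, 11 were lower and 0 higher at an unadjusted limma p under 0.05, and 18 were separated downward. Rpl23 had 13.19, 13.36 and 13.22 in the exposed pups, against 13.51, 13.54 and 13.64 in the vehicle pups, a difference of -0.30. Rps15 had 12.81, 12.47 and 12.76 in the exposed pups, against 13.02, 13.14 and 13.32 in the vehicle pups, a difference of -0.48. Exposed replicate 2 was the lowest of the exposed pups for Rps15 and for Rps3, with 13.63, 13.07 and 13.58 in the exposed pups against 13.68, 13.79 and 13.85 in the vehicle pups. Set against the mean of the 9 arrays, the list averaged 0.06, -0.23 and -0.08 in the exposed pups, against -0.03, 0.01 and 0.20 in the vehicle pups, so the 2 arrays that stood apart were its lowest and its highest. Without both, 42 of 61 members lay below 0, the median was -0.03 and 4 were lower at an unadjusted limma p under 0.05. Leaving out the lowest exposed and the highest vehicle array of a list moves it toward 0 by that choice. The list includes the Rps9 probe ILMN_2038796, which is among the probes at separate levels. It had 13.14, 9.88 and 10.32 in the exposed pups, against 10.11, 10.29 and 10.77 in the vehicle pups. The part of such probes in the list's array means was not tested.

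Ribosomal protein messages are known in mammals for beginning with a pyrimidine tract, the 5′ TOP motif, through which mTOR signalling controls their translation, and the starts of the genes are shown because these members lay on one side together. The stretches run from 25 bases before to 15 bases from the annotated start on, 5′ to 3′ on the gene's strand (RefSeq, GRCr8), with the letters CTTTC and CTTCC and their reverse complements GAAAG and GGAAG in capitals; neighbouring matches can share letters. Of the 11 genes lower at an unadjusted limma p under 0.05, 8 had an entry in the table and 6 of these a match on either strand.
Rpl23 (chr10:83272170-83272209, minus strand): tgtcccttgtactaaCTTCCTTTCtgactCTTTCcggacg
Rps15 (chr7:10068101-10068140, minus strand): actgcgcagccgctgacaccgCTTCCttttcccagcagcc
Rps3 (chr1:163195762-163195801, minus strand): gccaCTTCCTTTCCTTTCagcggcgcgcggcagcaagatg
Rplp2 (chr1:205975896-205975935, plus strand): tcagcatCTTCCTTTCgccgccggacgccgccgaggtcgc
Rpl3 (chr7:113507976-113508015, minus strand): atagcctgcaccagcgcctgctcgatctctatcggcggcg
Mrps26 (chr3:138222299-138222338, plus strand): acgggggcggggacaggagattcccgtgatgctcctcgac
Rpl23 has 2 runs of capitals and Rps3 a single long one, whereas Rpl3 and the mitochondrial Mrps26 have none. The capitals of Rps3 and Rplp2 and the first run of Rpl23 end within the 25 bases before the annotated start. They lie outside the annotated message. The run of Rps15 reaches the annotated start, and the second run of Rpl23 lies after it. The tract of a message lies on the gene's strand, and there, in the 40-base window, a match was found in 33 of 51 ribosomal protein genes with an entry (64.7%), in 14 of 48 mitochondrial ribosomal protein genes (29.2%), in 14 of 49 oxidative phosphorylation genes (28.6%) and in 13.1% of all 33469 entries. On either strand a match was found in 35 of 51 ribosomal protein genes (68.6%), in 21 of 48 mitochondrial ribosomal protein genes (43.8%), in 23 of 49 oxidative phosphorylation genes (46.9%) and in 25.1% of all entries. These are counts of letters near annotated starts and not of sites in use.

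Of 59 measured mitochondrial ribosomal protein genes 50 lay below vehicle, with a median of -0.12, and 4 were lower and 0 higher at an unadjusted limma p under 0.05 (Mrps26, Mrps35, Mrpl21 and Mrps23). Mrps35 had 10.99, 10.72 and 11.03 in the exposed pups, against 11.38, 11.19 and 11.33 in the vehicle pups. Of 55 oxidative phosphorylation genes 44 lay below vehicle, with a median of -0.12, and 2 were lower, the complex II subunit Sdhb and the ATP synthase subunit Atp5mc2, while the ATP synthase subunit Atp5f1b was higher. In both lists all but 3 measured genes averaged at least 8. Their counts of lower genes at that p lie near the share of the brighter probes, 612 of 11262. Without exposed replicate 2 and vehicle replicate 3 the median was -0.004 for mitochondrial ribosomal proteins, with 31 of 59 below 0, and -0.008 for oxidative phosphorylation, with 30 of 55 below 0. Mrps26 differed by -0.60 with all pups and its exposed values were not lowest in replicate 2.

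**Figure D4:**
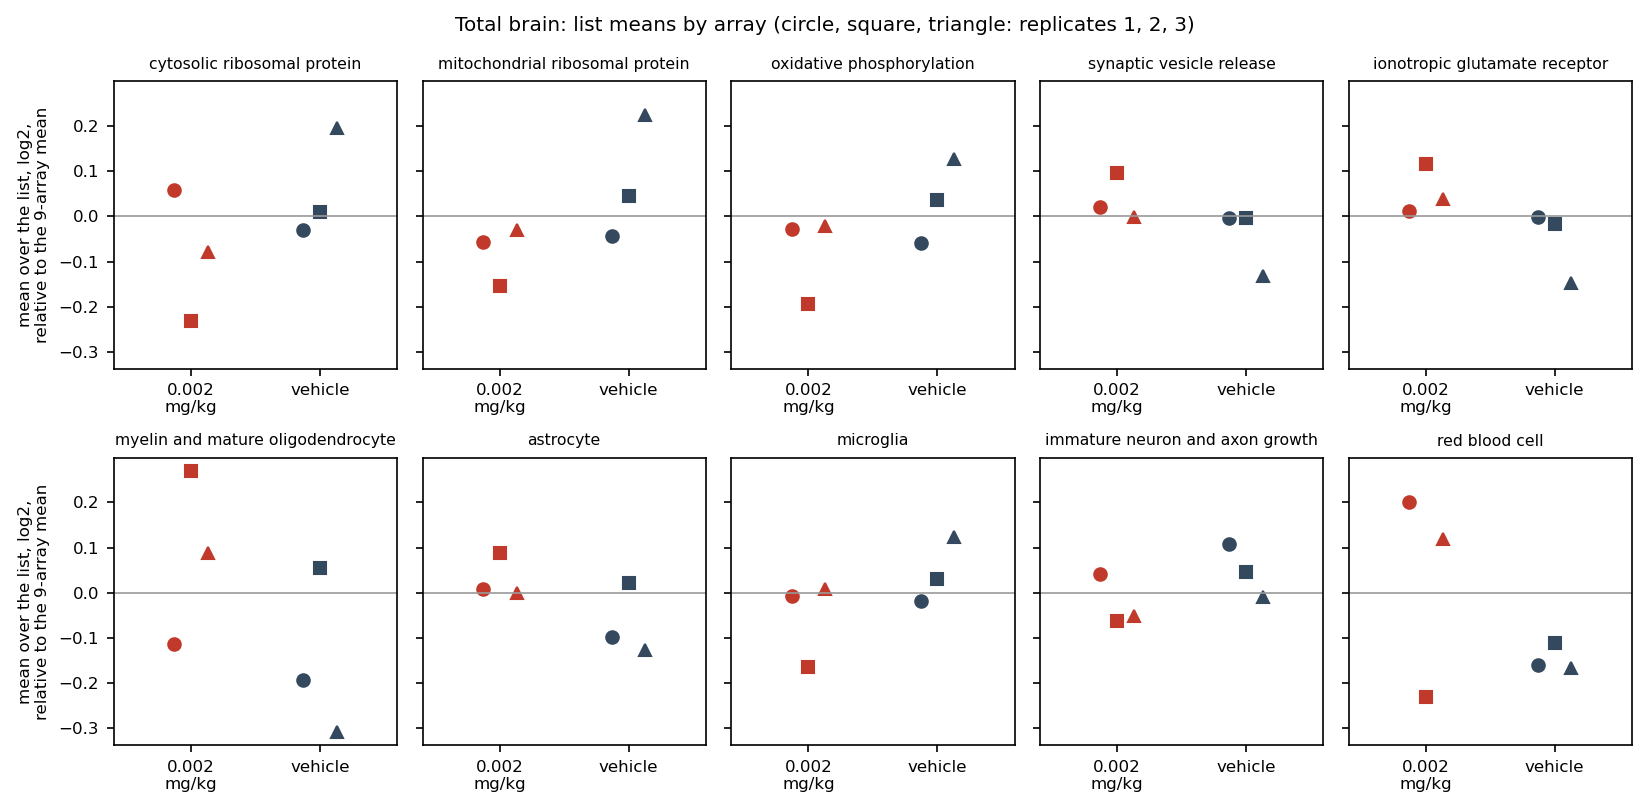
Mean over the members of 10 lists in each pup (y axis, log2-like units relative to the mean of the 9 total brain arrays), for 0.002 mg/kg (red, left) and vehicle (dark, right). Circle, square and triangle are replicates 1, 2 and 3. In the ribosomal protein panel exposed replicate 2 (square, -0.23) is the lowest and vehicle replicate 3 (triangle, 0.20) the highest.

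Among the lists of neurotransmitter receptors, that of ionotropic glutamate receptors lay farthest from 0. Of 15 measured ionotropic glutamate receptor subunits, 11 lay above 0, with a median of 0.13, and 6 were higher and 0 lower at an unadjusted limma p under 0.05. They were the NMDA receptor subunits Grin1, Grin2a and Grin2c, the AMPA receptor subunit Gria2 and the kainate receptor subunits Grik1 and Grik5. Gria2 had 13.25, 13.57 and 13.22 in the exposed pups, against 13.17, 13.05 and 12.73 in the vehicle pups, a difference of 0.36. Grin1, the obligatory NMDA receptor subunit, had 11.77, 12.18 and 11.85 in the exposed pups, against 11.70, 11.74 and 11.50 in the vehicle pups, a difference of 0.29. Grin2b, the juvenile NMDA receptor subunit, had 8.81, 8.84 and 8.52 in the exposed pups against 8.97, 8.91 and 8.70 in the vehicle pups, which overlap. In both Gria2 and Grin1 exposed replicate 2 was the highest pup and vehicle replicate 3 the lowest, and without these 2 pups 0 of 15 subunits had an unadjusted limma p under 0.05 and the median was 0.04. Of 16 GABA and glycine receptor genes 12 lay above 0 with a median of 0.03 and 0 had an unadjusted limma p under 0.05, and without the 2 pups 8 lay above and 8 below 0. Of 6 metabotropic glutamate receptors 4 lay above 0 with a median of 0.02, and without the 2 pups 3 lay above and 3 below. Monoamine receptors were split into 11 above and 11 below 0, and cholinergic genes had a median of 0.002.

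Of 27 measured synaptic vesicle genes, 21 lay above 0 with a median of 0.06, and 5 were higher and 0 lower at an unadjusted limma p under 0.05: Vamp2, Sv2b, Syt1, Snap25 and Syp. Vamp2, the vesicle SNARE, had 9.41, 9.54 and 9.41 in the exposed pups, against 9.10, 9.20 and 9.26 in the vehicle pups, a difference of 0.26. Snap25, the SNARE of the plasma membrane, had 12.80, 13.45 and 12.83 in the exposed pups, against 12.72, 12.49 and 12.37 in the vehicle pups, a difference of 0.50. Without the 2 pups that stood apart, 15 of 27 lay above 0 with a median of 0.01. Scn1a, a sodium channel of fast-spiking neurons, had 10.09, 10.78 and 10.26 in the exposed pups, against 9.90, 9.71 and 9.55 in the vehicle pups, a difference of 0.66 ± 0.18. Members of the calcium channel list stood on both sides. The auxiliary subunit Cacna2d3 (0.16) lay above vehicle, as did the list members Cacng2 (0.25) and Cacng8 (0.16). The pore subunit Cacna1c (-0.12) and the list member Cacng4 (-0.17) lay below it. The ryanodine receptor Ryr2, a calcium release channel that some halogenated aromatic compounds bind, differed by 0.08 at the probe with the highest mean and lay near the floor.

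Among activity genes the immediate early transcription factor Junb had 8.96, 9.01 and 8.91 in the exposed pups, against 8.80, 8.71 and 8.75 in the vehicle pups, and the synaptic Arc had 8.38, 8.47 and 8.41 in the exposed pups, against 8.26, 8.30 and 8.12 in the vehicle pups. Jun went the other way, with 9.07, 8.89 and 9.03 in the exposed pups against 9.11, 9.18 and 9.19 in the vehicle pups. Fos lay at 8.04, 8.08 and 8.04 in the exposed pups and 8.03, 7.99 and 8.01 in the vehicle pups, close to the floor.

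Glial lists had medians above 0 for myelin and astrocytes and below 0 for microglia. In whole tissue, fewer cells of a type and less RNA per cell cannot be told apart. Of 18 measured myelin genes 16 lay above 0 with a median of 0.20, and Mobp, Ugt8 and Ermn were higher at an unadjusted limma p under 0.05. Mobp, a protein of compact myelin, had 12.08, 11.99 and 12.10 in the exposed pups, against 11.38, 11.85 and 11.30 in the vehicle pups, a difference of 0.55 ± 0.13. Mbp, the major myelin basic protein and a thyroid hormone target, had 10.03, 10.53 and 10.08 in the exposed pups against 10.06, 10.44 and 9.81 in the vehicle pups, which overlap. The myelin list averaged -0.11, 0.27 and 0.09 in the exposed pups, against -0.19, 0.05 and -0.31 in the vehicle pups, and without exposed replicate 2 and vehicle replicate 3 the median was 0.05 with 11 of 18 above 0.

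Of 15 astrocyte genes 10 lay above 0 with a median of 0.18, and 4 were higher at an unadjusted limma p under 0.05: Gfap, Clu, Gpr37l1 and Gja1. Gfap, the intermediate filament of astrocytes, had 12.46, 12.59 and 12.48 in the exposed pups, against 12.24, 12.41 and 12.20 in the vehicle pups, a difference of 0.23. Of 16 microglial genes 12 lay below 0 with a median of -0.10, and the signalling adaptors Fcer1g (-0.35) and Tyrobp (-0.14) were lower at an unadjusted limma p under 0.05. Without the 2 pups the medians were 0.04 for astrocytes and -0.01 for microglia. Genes of immature neurons and axon growth lay below 0 in 18 of 24 members with a median of -0.06, and in 18 of 24 with a median of -0.08 without the 2 pups. In that list the tubulin Tubb2b had 13.56, 13.06 and 13.35 in the exposed pups against 13.65, 13.57 and 13.58 in the vehicle pups, and the collapsin response mediator Dpysl5 had 9.19, 8.92 and 9.08 in the exposed pups against 9.38, 9.20 and 9.37 in the vehicle pups.

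Fatty acid genes, Acsl5 among them, lay above vehicle in 16 of 22 members with a median of 0.09. Those higher at an unadjusted limma p under 0.05 were Acsl5, the oxidation enzymes Acadl, Hadhb and Cpt1a, and the desaturase Scd. Cpt1a, the gate for entry of fatty acids into mitochondria, had 9.40, 9.94 and 9.57 in the exposed pups, against 9.21, 9.38 and 9.38 in the vehicle pups. Of 13 adhesion receptors of the Adgrb1 family 11 lay above 0 with a median of 0.11, and Adgrb1, Adgrb2, Adgrl4 and Adgre1 were higher at an unadjusted limma p under 0.05. Without the 2 pups the medians were 0.02 for the fatty acid genes and 0.03 for the adhesion receptors. With all pups, the lists that hold Myl12b, Arpin and Coq3 lay nearer to 0 than the adhesion receptors. Nonmuscle myosin genes, with Myl12b, had 9 above and 6 below 0 with a median of 0.02. Arp2/3 and branched actin genes, with Arpin, had 11 above and 7 below with a median of 0.02. Ubiquinone synthesis genes, with Coq3, had 3 above and 6 below with a median of -0.05.

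Hox genes set position along the body axis, and in the brain they are expressed in the hindbrain and not in front of it. Of 15 measured Hox genes 8 lay above 0 with a median of 0.02 and 11 of the 15 averaged under 8. Of the 15, 6 were higher at an unadjusted limma p under 0.05: Hoxb2, Hoxb5, Hoxb7, Hoxb8, Hoxa2 and Hoxd3. Hoxb8 had 8.19, 8.31 and 7.98 in the exposed pups, against 7.73, 7.81 and 7.66 in the vehicle pups, a difference of 0.43. Hoxb2 had 8.06, 8.21 and 8.12 in the exposed pups, against 7.96, 7.96 and 7.92 in the vehicle pups, a difference of 0.18. Hoxc9 was the 1 lower at that p, with 7.85, 7.84 and 7.84 in the exposed pups against 7.93, 7.92 and 7.88 in the vehicle pups. Of 17 transmitter genes of hindbrain neurons 9 lay above and 8 below 0 with a median of 0.02, and without the 2 pups that stood apart 7 lay above and 10 below with a median of -0.01. In that list the serotonin transporter Slc6a4 differed by -0.25. Slc6a5, the transporter of glycine neurons in hindbrain and spinal cord, had 8.94, 9.47 and 9.37 in the exposed pups, against 8.72, 8.84 and 8.68 in the vehicle pups, a difference of 0.51. Without these 2 pups, 2 of the 15 Hox genes were higher at an unadjusted limma p under 0.05. How much hindbrain or cord each whole brain sample held was not measured, and its part in these values was not tested.

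Of 15 red cell genes 11 lay above 0 with a median of 0.05, and 14 of 15 with a median of 0.07 without the 2 pups that stood apart. The list averaged 0.20, -0.23 and 0.12 in the exposed pups, against -0.16, -0.11 and -0.17 in the vehicle pups. Exposed replicate 2 was its lowest array, so leaving it out raises the exposed mean by that choice. With each pup left out in turn the median ran from 0.004 to 0.10. Hbb-b1, an adult beta globin, had 15.30, 14.02 and 14.90 in the exposed pups, against 13.78, 14.09 and 13.89 in the vehicle pups, a difference of 0.82, with exposed replicate 2 among the vehicle pups. Alas2, the heme synthesis enzyme of red cells, had 8.65, 8.15 and 8.54 in the exposed pups, against 8.05, 7.91 and 8.06 in the vehicle pups. Globin probes of near-identical genes may share signal, and Hba-a1 differed by 0.12 near the top of the scale. Alox15 had its 2 highest exposed values in the same pups as Hbb-b1, replicates 1 and 3. Ttr, the transthyretin of the choroid plexus, had 12.81, 12.78 and 13.39 in the exposed pups against 13.35, 13.09 and 13.09 in the vehicle pups, which overlap.

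Of 24 measured genes of the thyroid hormone axis 12 lay above and 12 below 0, with a median of -0.001. Thra, the main thyroid hormone receptor of brain, had 13.72, 13.94 and 13.59 in the exposed pups, against 13.48, 13.49 and 13.28 in the vehicle pups, a difference of 0.33 ± 0.11 with an unadjusted limma p of 0.0192 and an adjusted p of 0.733. Hr, a corepressor that thyroid hormone induces, had 8.37, 8.504 and 8.38 in the exposed pups, against 8.21, 8.28 and 8.25 in the vehicle pups, a difference of 0.17. Both groups of pups were separated for Thra and Hr, whereas the targets Klf9 and Thrsp overlapped. Klf9 had 12.52, 12.36 and 12.63 in the exposed pups against 12.51, 12.63 and 12.45 in the vehicle pups, and Thrsp had 9.003, 9.02 and 8.58 in the exposed pups against 8.86, 9.04 and 9.01 in the vehicle pups. Thrb differed by 0.02, and Dio2 lay at the floor in all 6 pups. Without the 2 pups none of the 24 had an unadjusted limma p under 0.05.

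The genes of foreign compound metabolism were mostly at the floor, 18 of 30 averaging under 8. Cyp1a1, the standard target of the aryl hydrocarbon receptor, had 7.69, 7.72 and 7.68 in the exposed pups and 7.69, 7.71 and 7.70 in the vehicle pups, close to the floor in all 6. The P450 Cyp3a9 had 8.22, 8.37 and 8.39 in the exposed pups, against 8.06, 8.22 and 8.09 in the vehicle pups, and the efflux pump Abcg2 of brain capillaries had 9.16, 9.21 and 9.14 in the exposed pups, against 8.85, 8.79 and 9.10 in the vehicle pups. Gstp1, a glutathione transferase, had 11.42, 10.91 and 11.27 in the exposed pups, against 11.47, 11.64 and 11.75 in the vehicle pups, a difference of -0.42. The list median was 0.001, and 0.003 without the 2 pups that stood apart. In oxidative stress defence 13 genes lay above and 16 below 0 with a median of -0.02, and without the 2 pups 15 lay above and 14 below with a median of 0.01. The peroxiredoxin Prdx6 had 12.39, 12.44 and 12.32 in the exposed pups, against 12.16, 12.20 and 12.00 in the vehicle pups, and the superoxide dismutase Sod1 had 13.43, 13.30 and 13.41 in the exposed pups, against 13.48, 13.53 and 13.56 in the vehicle pups. Nqo1, a target of the stress regulator Nrf2, had 9.63, 9.32 and 9.60 in the exposed pups, against 9.68, 9.64 and 9.75 in the vehicle pups.

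Cholesterol synthesis had 11 of 16 genes below 0 with a median of -0.08 and 0 at an unadjusted limma p under 0.05. The median was -0.02 without the 2 pups that stood apart, -0.03 without vehicle replicate 1 and -0.05 without exposed replicate 2. Interferon and MHC genes had 23 of 31 below 0 with a median of -0.02, and 22 of 31 with a median of -0.01 without the 2 pups. Of the growth factor and mTOR genes, Tsc2, an inhibitor of mTOR complex 1, had 9.76, 9.78 and 9.69 in the exposed pups, against 9.61, 9.56 and 9.53 in the vehicle pups, while Igfbp2 (-0.33), the translation repressor Eif4ebp1 (-0.23) and the kinase Akt1 (-0.17) lay below vehicle. Per1, a clock gene, had 9.62, 9.73 and 9.67 in the exposed pups, against 9.34, 9.49 and 9.55 in the vehicle pups, and the time of day at which pups were killed is not given in the sources used here. The cerebellar transcription factor Zic2 had 10.67, 11.57 and 11.19 in the exposed pups, against 10.46, 10.53 and 10.54 in the vehicle pups, though its list as a whole had a median of 0.03. Neither the monoamine receptor, cholinergic, choroid plexus, endothelial nor apoptosis list had a median beyond 0.02 in size.

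At 0.2 mg/kg, with the same vehicle pups as reference, 0 of 22523 probes were called and 972 had an unadjusted limma p under 0.05. Between the 0.2 and 0.002 mg/kg groups themselves 0 of 22523 were called and 1321 had such a p. Both counts lie near the share that a p under 0.05 passes with no difference. Because each dose is compared with the same vehicle pups, values at the 2 doses are set side by side only. The named genes were picked for 0.002 mg/kg values beyond the vehicle values. That choice favours 0.2 mg/kg values nearer to vehicle, so a difference between the doses in these genes is no independent check. Adgrb1 had 8.18, 8.20 and 8.22 at 0 mg/kg, 8.65, 8.81 and 8.59 at 0.002 mg/kg and 8.24, 8.16 and 8.21 at 0.2 mg/kg, so the higher dose lay with vehicle. The 0.2 minus 0.002 mg/kg difference was -0.47 ± 0.05, with an adjusted limma p of 0.499. Myl12b, at 7.97, 7.94 and 7.96 in the 0.2 mg/kg pups, Acsl5, at 9.37, 9.42 and 9.43, and Mtbp, at 7.89, 7.88 and 7.88, also lay near vehicle there. Arpin, by contrast, had 9.70, 9.65 and 9.70 at 0.2 mg/kg, level with the 0.002 mg/kg pups, as did Dok4 with 9.77, 9.81 and 9.73 and Ybx3 with 11.38, 11.50 and 11.50. Of the 12 named genes on the higher side 3, and of the 12 on the lower side 6, differed from vehicle at 0.2 mg/kg by at least 50% of their difference at 0.002 mg/kg. The share over all genes was not counted. The Hox genes Hoxb5 (0.93) and Hoxb8 (0.51), Mobp (0.53) and Hbb-b1 (1.05) lay above vehicle at 0.2 mg/kg too, and the myelin list had a median of 0.22 there, against -0.03 for cytosolic ribosomal proteins.

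**Figure D5:**
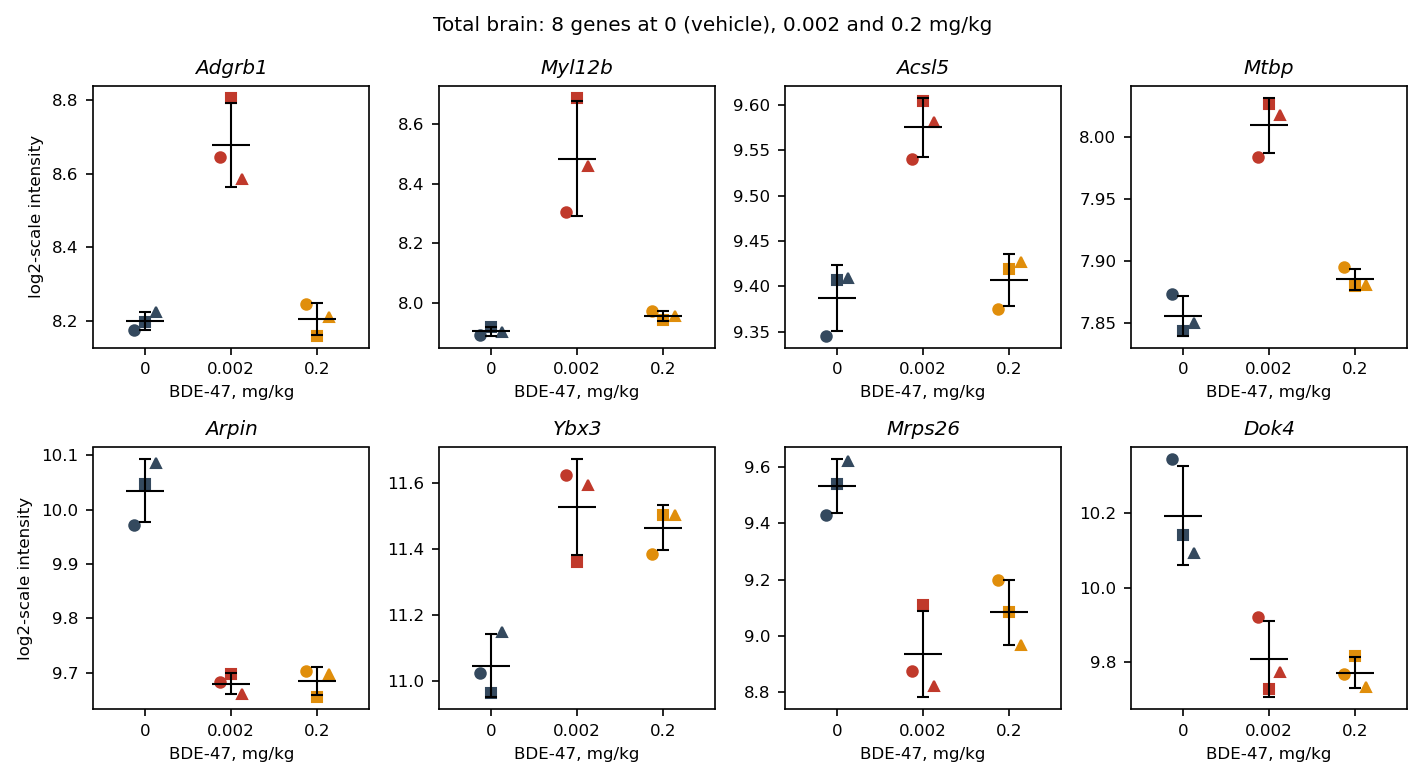
Values of 8 named genes on the log2-like scale (y axis) at 0 (vehicle), 0.002 and 0.2 mg/kg (x axis). Each symbol is 1 pup, and bars are the mean and SD of 3. In the upper row the 0.2 mg/kg pups lie near vehicle, and in the lower row they lie on the side of the 0.002 mg/kg pups.

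The same dose against vehicle in the frontal lobe rests on other pups, older and after more injections, so tissue, age and schedule cannot be told apart. There too 0 probes were called, and the smallest adjusted limma p was 0.91. The difference between the responses in total brain and frontal lobe was tested as an interaction on all 18 arrays, which called 0 probes. Of 22523 probes 1108 had an unadjusted limma p under 0.05, near the share that this p passes with no difference. The smallest adjusted limma p of the interaction was 0.938. Of the 12 named genes on each side, 7 and 7 had the same sign in frontal lobe. Over all 13337 genes with a symbol, 6752 lay above and 6585 below 0 there. At an unadjusted limma p under 0.05 in frontal lobe, 1 gene of the higher side had the same sign and 1 the opposite sign. On the lower side 0 had either. Fastkd2 had 9.44, 9.60 and 9.55 in exposed frontal lobe, against 9.41, 9.30 and 9.38 in vehicle frontal lobe, a difference of 0.17 beside 0.18 in total brain. Ybx3 had 9.96, 10.21 and 10.11 in exposed frontal lobe, against 10.85, 10.60 and 10.11 in vehicle frontal lobe, a difference of -0.43 beside 0.48 in total brain, and the frontal lobe groups overlap. Arpin, counted among the 7 of the lower side, differed by 0.00 in frontal lobe, and Adgrb1 by 0.04. Cytosolic ribosomal protein genes lay below vehicle there in 49 of 61 members with a median of -0.09, and oxidative phosphorylation genes in 50 of 55 with a median of -0.12. The part of single frontal lobe pups in these medians was not tested. Vehicle replicate 3 was the highest vehicle pup for Atp5mc2 (12.67, against 12.37 and 12.19) and Rps29 (13.64, against 13.48 and 13.31). For Rpl23 and Rpl7 vehicle replicate 2 was the highest. Hox genes, in tissue in front of their domain, had a median of 0.005.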

How the data were processed

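RNA of whole brains was hybridized as biotin-labelled cRNA to Illumina rat BeadArrays, 1 array per pup. The authors deposited normalized values close to a log2 scale, made with lumi per the submitters' processing notes. Lumi's version and settings were not given in the sources used here, nor whether it applied log2 or variance stabilization. Differences near the floor may therefore be compressed, and none is turned into a fold. There is no detection p in the deposited table, and the labels name neither chip nor batch. The values were used without further transformation or filter. Of 22523 probes 13793 had 1 gene symbol in the platform annotation (13337 distinct symbols) and 8730 had none, and 13752 were updated by Entrez identifier. Sequences and gene names are from RefSeq, GRCr8.

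Linear models with moderated variances (limma 3.58.1, R 4.3.3) were fitted to the 9 total brain arrays with dose group as the factor. A probe was called where its p, adjusted over the whole table by Benjamini-Hochberg, was under 0.05. The frontal lobe contrast was fitted on its 9 arrays and the interaction on all 18. The fit was tested on simulated data, and figures were drawn in Python 3.11.15. Named genes are the 12 per direction with the smallest p among brighter 50% probes with 1 symbol and groups that do not overlap, the 6 largest differences per direction, the 4 members of each list with the smallest p, list members whose groups do not overlap, and a set of thyroid, xenobiotic, Hox and glutamate receptor genes. Of these, the ones that bear on each group of genes are described. The 49 lists hold 1240 symbols, 977 of them measured, and take the probe with the highest mean per gene. The comparison, members and lists were chosen with earlier results of these data known. The fit was repeated with median centring, quantile normalization, array weights, a prior with trend and robust options, a replicate block, dim probes left out, other sets of arrays, an adjusted p under 0.1, each pup left out, and, added after seeing the data, both pups that stood apart left out. For arrays, their number limits the precision.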

Additional observations from a re-analysis of the deposited data

How the results depend on the processing

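The count of called probes was 0 and became 1 in the brighter 50% of probes, 3 with trend and robust options (ILMN_1363254, Adgrb1 and Myl12b), 2 with array weights (ILMN_1363254 and Arpin, at adjusted limma p of 0.02 each), 1 with all 18 arrays in the fit, 2 at an adjusted p under 0.1, and 1 without both pups that stood apart, which is ILMN_1365908. It ranged from 0 to 1 with each pup left out, with 1 call (ILMN_1365908) without exposed replicate 2. It stayed at 0 with quantile normalization, median centring, the replicate block and only the 6 compared arrays. The difference of Arpin ran from -0.33 to -0.39 over the alternatives, with an adjusted limma p between 0.02 and 0.634. The 1468 probes at an unadjusted limma p under 0.05 ranged from 949 without exposed replicate 2 to 2273 without exposed replicate 1, and were 937 without both pups. With trend and robust options the 0.2 mg/kg comparison with vehicle called 2 probes and 0.2 against 0.002 mg/kg called 2, against 0 each. Deviations of same-numbered pups had r of -0.24, 0.07 and 0.24 between 0.002 mg/kg and vehicle, -0.31, 0.20 and 0.29 between 0.2 mg/kg and vehicle, and 0.25, 0.46 and 0.17 between 0.2 and 0.002 mg/kg. Differently numbered pups were not correlated for comparison, so these values cannot show whether the numbers pair pups of any 2 groups. No label says what same-numbered pups share. The replicate block gave 0 calls in each of these 3 comparisons. For 0.002 mg/kg against vehicle it gave 2047 probes at an unadjusted limma p under 0.05, and at that p it moved the genes lower in the list to 19 against 11 for cytosolic ribosomal proteins, 14 against 4 for mitochondrial ribosomal proteins and 9 against 2 for oxidative phosphorylation, and the higher myelin genes to 6 against 3. Over 91 named genes and 1364 values under the alternatives, the sign turned in 15, in Thrsp, Klf9, Thrb, Cyp1a1 and Mbp. With each pup left out, Thrsp ran from -0.177 to 0.041, Klf9 from -0.094 to 0.045, Thrb from -0.15 to 0.139, Cyp1a1 from -0.0155 to 0.0063 and Mbp from -0.046 to 0.279. With array weights Klf9 became 0.0097 and Mbp -0.069, and without both pups Klf9 became 0.0039, Thrb -0.07 and Mbp -0.194. The cause of these shifts was not tested. Of 735 list medians under the alternatives 84 moved by more than the spread of the pups' list means and 651 did not. Probes near the floor carry no detection p, so a small difference there is not shown to be absent.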

Other observations

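Of 15 glycolysis genes 5 lay above and 10 below 0 with a median of -0.02. The split was 8 above and 7 below without exposed replicate 2 (median 0.01) and likewise without vehicle replicate 2 (median 0.02), and 7 above and 8 below without the 2 pups that stood apart. The 3 at an unadjusted limma p under 0.05, Ldhb, Eno2 and Pfkp, were all higher in the exposed pups. Ldhb, the lactate dehydrogenase subunit of heart and brain, had 13.57, 13.76 and 13.58 in the exposed pups, against 13.45, 13.38 and 13.45 in the vehicle pups. Of 26 translation factors 3 were higher (Eif3a, Eif4h and Eif4a2) and 3 lower (Eif5a, Eef1b2 and Eif3h) at an unadjusted limma p under 0.05, and without the 2 pups that stood apart 1 was higher and 1 lower. Eif5a, a factor of elongation that carries hypusine, had 11.19, 11.12 and 11.04 in the exposed pups, against 11.28, 11.38 and 11.31 in the vehicle pups. In the replication list Mcm4 differed by 0.14 and Mcm3, another subunit of the same helicase, by -0.13. Lhx6, a transcription factor of cortical interneurons, had 8.36, 8.38 and 8.34 in the exposed pups, against 8.15, 8.14 and 8.27 in the vehicle pups.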
